A study of Mus musculus with 11 samples.

Results

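A small number of retinal pigment epithelium (RPE) cells was captured in single-cell suspensions of mouse retina at postnatal day 10. They were chosen by their markers, as cells with over 300 detected genes and at least 1 unique molecular identifier (UMI, 1 counted RNA molecule) in 3 or more of the 7 genes Rpe65, Rgr, Rdh5, Ttr, Rrh, Lrat and Best1. This rule found 60 cells among 20033 cells with over 300 genes, out of 20067 barcodes. The 11 C57BL/6J mice comprised controls injected with PBS (n = 3), littermates made hyperglycemic with streptozotocin (STZ), a model of Phase I retinopathy of prematurity (Phase I ROP, n = 3), and a set of STZ-treated littermates whose nursing dams received a diet enriched in ω-3 (n = 2) or ω-6 (n = 3) long-chain fatty acids. The titles and treatment labels give STZ for every diet mouse, although the descriptions of ω-6 mice 2 and 3 leave it out. STZ removes insulin-producing cells, so that the model is one of hyperglycemia without oxygen exposure. The anterior segment and the RPE were taken off before the retina was dissociated with papain, so the 60 cells are a residue and not a sample of the whole RPE. Droplet capture used inDrop, and the values are UMI counts, given as such, as UMIs per 10000 of a cell, or as CPM, counts per 1000000 of the summed UMIs of a set of cells. Total UMIs per mouse ran from 2565568 to 6517776. The mouse was the replicate throughout.

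The RPE is a single layer of pigmented cells behind the photoreceptors. It turns all-trans retinal released by bleached opsins back into 11-cis retinal through the enzymes of the visual cycle, absorbs stray light with melanin, carries nutrients, ions and lactate between the photoreceptors and the choroidal blood supply, engulfs shed outer segment tips, and secretes proteins into the layers on both sides. Fatty acids of photoreceptor membranes also pass through it.

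The rule markers were present unevenly. Ttr, which encodes the thyroid hormone and retinol carrier transthyretin, was seen in 60 of 60 cells with 5142 UMIs. Rdh5, the 11-cis retinol dehydrogenase, was seen in 56 cells with 252 UMIs, and Rgr, an opsin of the RPE that handles all-trans retinal, in 52 cells with 339 UMIs. Rpe65, the isomerase of the visual cycle, was seen in 31 cells with 115 UMIs. Rrh, encoding peropsin, was seen in 19 cells with 49 UMIs and Lrat, the enzyme that makes retinyl esters, in 17 cells with 38 UMIs. Best1, a chloride channel, had no UMI in the 60 cells, which allows a share of up to 5% of cells with a UMI, and 36 UMIs in 28 other cells. The commonest sets of markers were Rpe65, Rgr, Rdh5 and Ttr together in 14 cells and Rgr, Rdh5 and Ttr in 13 cells. No cell held all 7 markers, and 4 cells held 6. Among the other cells Rdh5 was not rare, with a UMI in 8.38% of cells, and Rrh had a UMI in 27.1% of cells of the Müller glia cluster. These values chose the cells and are given as a description.

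Cells with 2 markers and cells with 3 differed in makeup, but the threshold also cut through the RPE cluster described below. The rule markers define these sets, so their shares are a description. Of the 157 cells with 2 markers, 81 lay in the Müller glia cluster and 12 in the RPE cluster. Of these 157 cells, 84.7% had Rdh5, 71.3% had Rrh and 7.64% had the melanosome gene Pmel. Of the 23 cells with 3 markers, 100% had Ttr, 73.9% had Pmel and 82.6% had the collagen gene Col8a1. Cells with 2 markers had a median of 4497 UMIs and cells with 3 markers a median of 771 UMIs.

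The label was checked by clustering all cells without the 7 rule markers. Of the 25 clusters, 1 with 71 cells held 56 of the 60 members (93.3%) and 0.0751% of the other cells. Leading genes of this cluster among those not in the rule were Pmel, Tyrp1, Col8a1, Cpxm2, Thbs4, Mlana and Ptgds. The 15 further cells of the cluster had 2 markers (12 cells) or 1 marker (3 cells), a median of 790 UMIs, and all 15 carried Ttr and Ptgds. The 4 members outside it each had 3 markers, the fewest allowed. A cell of control mouse 3 grouped with cones and had 12 UMIs of the cone gene Opn1sw beside 32 of Ttr. A cell of Phase I ROP mouse 3 grouped with Müller glia, with 16 UMIs of Glul, 5 of Slc1a3 and 1 of Ttr. A cell of ω-3 mouse 2 had 23 UMIs of Tfap2b, a transcription factor of amacrine cells, and 1 UMI of Ttr. A cell of ω-6 mouse 3 had 9 UMIs of Ttr and 3 of Pmel and grouped with 909 cells led by Ebf3. Shares and levels by group are given with and without them where the value turns on them.

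The amount of RNA per member varied widely, with a median of 1122.5 UMIs (525 to 16961) and 602 genes, against 1536 UMIs and 883 genes in the other cells. The 2 largest members held 29.6% of all 106855 member UMIs. The largest, with 16961 UMIs, was the only member of Phase I ROP mouse 1, lay in the RPE cluster, and had 1280 UMIs of Ttr, 118 of Rgr and 39 of Rpe65. The next, with 14635 UMIs, was the cell of ω-3 mouse 2 with Tfap2b, and held 60.8% of that mouse's member UMIs. Across libraries, 1157 barcodes occurred more than once, and 7 members carried such a barcode, none of them shared with another member.

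Markers of other retinal cells were present in some members. The rod list (6 genes, among them Sag and Gnat1) summed to 1881 CPM in members, 9148 CPM in the other cells and 25793 CPM in the rod cluster, and 16 of 60 members had any of it. Per mouse, rod RNA in members ranged from 0 CPM in control mice 1 and 2 and Phase I ROP mouse 1 to 6081 CPM in Phase I ROP mouse 2. Conversely, Ttr in cells of the rod cluster ran from 0 to 23.4 CPM per mouse, against 13084 to 118104 CPM in members. The Müller glia list of 6 genes summed to 1572 CPM in members, above the 1056 CPM of the other cells and below the 9307 CPM of the Müller glia cluster, and 39 of 60 members had any of it. Glul, which both cell types express, was seen in 33 members, Dkk3 in 19, Slc1a3 in 5 and Abca8a in 2, while Aqp4 and Kcnj10 had no UMI. Per mouse the list ran from 0 to 6079 CPM, highest in Phase I ROP mouse 3, whose member outside the cluster grouped with Müller glia. Of 6 microglial genes, 5 were at 0 (C1qa, C1qb, C1qc, P2ry12, Tyrobp), and Cx3cr1 was seen in 4 members. Of 5 endothelial genes, Cldn5, Cdh5 and Flt1 were at 0, while Kdr and Pecam1 were seen in 4 members each, and the list summed to 149.7 CPM in members and 315 CPM in other cells with 8 of 60 members positive. Among other pigmented or bordering cells, the melanocyte genes Kit and Ednrb were seen in 5 and 3 members, and of the ciliary epithelium list Wfdc1, Otx1 and Msx1 were at 0, with Zic1 in 4 cells and Bmp7 in 7. Both lists were above the other cells. The melanocyte list summed to 122 CPM in members and 30.1 CPM in other cells, with 7 of 60 members positive. For the ciliary epithelium list the sums were 150 and 43.9 CPM, with 11 of 60 members positive.

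With 6 of the rule markers included, 761 genes had a UMI in at least 20% of members. Their median ratio of pooled CPM in members to pooled CPM in all other cells (1 CPM added to each) was 1.29. A ratio over 10 was found for 136 of them (17.9%), the 6 rule markers among these. The 20 genes outside the rule with the largest ratios ranged from 223 to 902. Among them were pigment genes (Pmel, Tyrp1, Gpnmb, Mlana, Oca2), matrix and secreted proteins (Col8a1, Col8a2, Col4a4, Cpxm2, Ptgds, Thbs1, Thbs4, Sema3c, A2m, Trf) and transporters or channels (Slc16a8, Stra6, Clic6). A further leading gene, Gm20425 (chromosome 9, 103190208 to 103230307, minus strand, GRCm38), overlaps Trf on the same strand, so reads of this pair cannot be assigned with certainty. These genes are of the same cells that were clustered, so the ratios are a description.

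**Figure D1:**
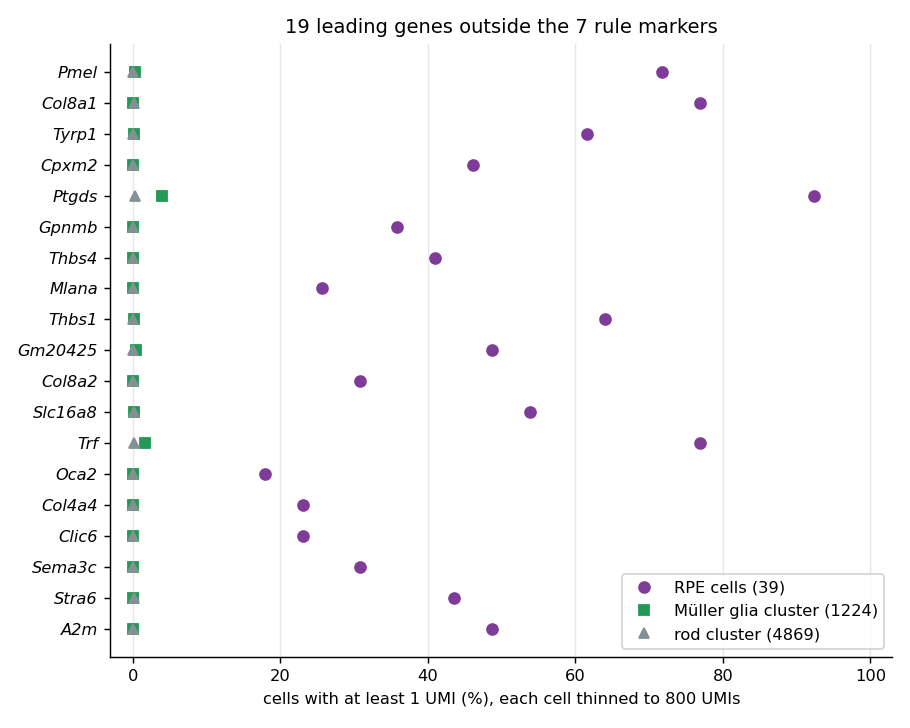
Share of cells with at least 1 UMI (x axis, percent) of 19 of the 20 leading genes outside the rule (y axis, ordered by ratio) after each cell was thinned to 800 UMIs, in 39 RPE cells (circles), 1224 cells of the Müller glia cluster (squares) and 4869 cells of the rod cluster (triangles). RPE cells lie to the right for every gene, from 17.9% for Oca2 to 92.3% for Ptgds, while the highest share elsewhere is 3.92%, for Ptgds in the Müller glia cluster.

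Thinning kept 39 of the 60 members, and 21 with fewer than 800 UMIs were left out. For all 20 leading genes the share of cells with a UMI was above that in both clusters, with and without thinning. These genes had been picked by their ratio in the same cells, so this is a description and no test. Pmel was seen in 71.8% of thinned RPE cells, 0.0822% of rod cluster cells and 0.327% of Müller glia cluster cells (80%, 0.0994% and 0.841% without thinning).

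Of the visual cycle genes that were not in the rule, 3 of 11 had a ratio over 10. Stra6, the receptor that takes up retinol from the blood, was seen in 39 members at 926 CPM against 2.97 CPM in other cells. Rdh10, a retinol dehydrogenase, was seen in 51 members at 2134 CPM against 69.5 CPM. Rlbp1, the carrier of 11-cis retinal, is shared with Müller glia, and had 2190 CPM in members and 2947 CPM in the Müller glia cluster. Abca4 was seen in 20 members with a ratio of 2.15, while Rdh8, Dhrs9 and Rbp4 had no UMI.

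Of the 14 genes of pigment synthesis and melanosomes in the table, 12 had a ratio over 10, and every member had at least 1 UMI of the list. Pmel, which forms the fibrils on which melanin is laid down, had 467 UMIs in 48 cells. Tyrp1 and Tyr, enzymes of melanin synthesis, had 222 UMIs in 45 cells and 126 UMIs in 43 cells. Dct, a further enzyme of the same pathway, had 818 UMIs in 58 cells but was also seen in 26.1% of other cells, so its ratio was 37.6. Mitf, the transcription factor of pigment cells, was caught in 5 cells only. The least raised were Bloc1s1, with a ratio of 4.13, and Trpm1, with a ratio of 2.13, which is also a channel of ON bipolar cells.

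RefSeq promoters (250 bases before to 50 bases after the start, GRCm38.p6) were available for 10 of these 14 pigment genes. The hexamer CATGTG, a form of the E-box bound by MITF and related factors, was searched on both strands and occurred in 7 of the 10 (Tyr, Tyrp1, Dct, Oca2, Slc24a5, Trpm1 and Bloc1s1) and in 14.1% of all 27025 promoters. The palindrome CACGTG, which does not overlap it, occurred in 1 of the 10 (Bloc1s1) and in 7.24% of all promoters. Of the 20 leading genes 12 had a promoter sequence, and 2 of them (Tyrp1, Oca2) held CATGTG. Of the rule markers 2 of 6 held it (Rpe65 and Rgr). The promoters of Tyrp1 (chr4:80833963-80834262, plus strand), Tyr (chr7:87493463-87493762, minus strand) and Rpe65 (chr3:159598931-159599230, plus strand) are shown because they belong to 2 pigment enzymes and to the defining enzyme of these cells. Capitals mark CATGTG or its reverse complement, which begins 46 bases before the start in Tyrp1, 21 bases before it in Tyr and 239 bases before it in Rpe65.
Tyrp1: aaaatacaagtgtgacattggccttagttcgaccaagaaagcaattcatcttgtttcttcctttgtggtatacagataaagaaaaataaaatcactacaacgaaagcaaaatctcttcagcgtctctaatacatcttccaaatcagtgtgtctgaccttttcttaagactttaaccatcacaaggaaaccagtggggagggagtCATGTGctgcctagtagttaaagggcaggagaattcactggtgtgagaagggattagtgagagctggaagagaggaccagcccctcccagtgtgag
Tyr: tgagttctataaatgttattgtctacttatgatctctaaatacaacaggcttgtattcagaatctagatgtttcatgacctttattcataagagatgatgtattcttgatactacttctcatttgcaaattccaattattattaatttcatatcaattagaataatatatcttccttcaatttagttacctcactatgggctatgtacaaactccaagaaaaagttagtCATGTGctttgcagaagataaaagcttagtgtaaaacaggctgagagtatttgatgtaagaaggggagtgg
Rpe65: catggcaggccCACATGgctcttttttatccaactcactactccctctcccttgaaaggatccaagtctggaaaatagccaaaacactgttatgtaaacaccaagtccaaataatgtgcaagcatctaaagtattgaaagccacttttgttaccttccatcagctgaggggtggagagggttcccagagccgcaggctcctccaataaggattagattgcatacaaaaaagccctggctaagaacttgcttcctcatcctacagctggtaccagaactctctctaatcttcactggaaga
In the samples, Tyrp1 was at 2078 CPM, Tyr at 1179 CPM and Rpe65 at 1076 CPM in members, and at 2.14, 9.97 and 0.109 CPM in other cells. A match of letters is a description of the sequence and was not tied to binding here.

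Of the 20 genes of ion, water and nutrient transport, 9 had a ratio over 10. Slc16a8, the lactate transporter of the basolateral RPE membrane, was seen in 36 members at 805 CPM against 1.86 CPM. Slc16a1, the lactate transporter of the apical side, was seen in 43 members at 1497 CPM against 81.6 CPM, and Bsg, the partner that brings these carriers to the membrane, in 51 members at 2499 CPM against 294.8 CPM. Slc2a1, the glucose transporter, had 1348 CPM against 107 CPM. Kcnj13, a potassium channel of the apical membrane, was caught in 9 members with a ratio of 115, and Slc26a7 in 18 members with a ratio of 108. Car14, a membrane carbonic anhydrase, was seen in 41 members (1123 CPM against 37.9 CPM), while Car2 was below the other cells (337 against 494 CPM).

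Epithelial genes were in part undetected. Of 15 junction and cytoskeleton genes in the table, 6 had a ratio over 10. Cdh3, P-cadherin, was seen in 20 members with a ratio of 138, Krt8 in 11 with a ratio of 153, Krt18 in 29 with a ratio of 23.1, and Ezr, of the apical microvilli, in 22 with a ratio of 34.7. Ocln, Cdh1, Pard3 and Epcam had no UMI and Tjp1 had 1 UMI.

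Among 19 genes of phagocytosis and lysosomes, 4 had a ratio over 10. Ctsd, the cathepsin that degrades outer segment protein, was seen in 58 members at 3360 CPM against 144 CPM. Psap, a lysosomal protein that activates lipid breakdown, was seen in 55 members at 2920 CPM against 288 CPM. Receptors for outer segments were sparse, with Mertk in 4 members, Itgb5 in 9, Itgav in 27 and Cd36 in none.

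Of the 22 genes for secreted proteins and matrix, 13 had a ratio over 10. Ptgds, which makes prostaglandin D and carries retinoids, had 1048 UMIs in 58 members, from 0 to 255 UMIs per 10000. Col8a1, a collagen of basement membranes, had 370 UMIs in 50 members. Cst3, cystatin C, had 1263 UMIs in 59 members but was seen in 51.6% of other cells too. Timp3, an inhibitor of matrix proteases in Bruch's membrane, had 150 UMIs in 50 members at a ratio of 40.9, and Enpp2 had 174 UMIs in 33 members at a ratio of 74.8. Apoe was at 4417 CPM in members and 2966 CPM in the Müller glia cluster. Vegfa, the growth factor for the choroidal vessels, was caught in 7 members with 13 UMIs (122 CPM against 58.9 CPM in other cells), and Serpinf1, the gene of pigment epithelium-derived factor, had no UMI. Among 14 transcription factors of the RPE or eye field only Hsf4 (4 UMIs) passed a ratio of 10, Otx2 was seen in 24 members at a ratio of 1.09, and Rax, Six6 and Nr2f1 had no UMI.

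Of 28 genes of fatty acid uptake, synthesis and oxidation, 3 had a ratio over 10, among them Acadl, of fatty acid oxidation (8 members, ratio 10.8), and Elovl1, of chain elongation (4 members, ratio 10.7). Mfsd2a, the carrier of docosahexaenoic acid as lysophosphatidylcholine, was caught in 5 members with 5 UMIs and Elovl2 in 2 members. The metallothioneins Mt1 (50 members, ratio 31.4), Mt2 (25, ratio 22.8) and Mt3 (12, ratio 19.5) were raised. Of 28 immediate early and dissociation response genes none had a ratio over 2, and the list summed to 2910 CPM in members and 5439 CPM in other cells. This gap was absent in controls, where pooled members were at 2915 CPM and other cells at 2914 CPM. It was 2870 against 5993 CPM in Phase I ROP mice, 3124 against 6323 CPM on the ω-3 diet and 2792 against 5817 CPM on the ω-6 diet. Mitochondrially encoded protein genes were seen in all members (13 genes, none with a ratio over 2).

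**Figure D2:**
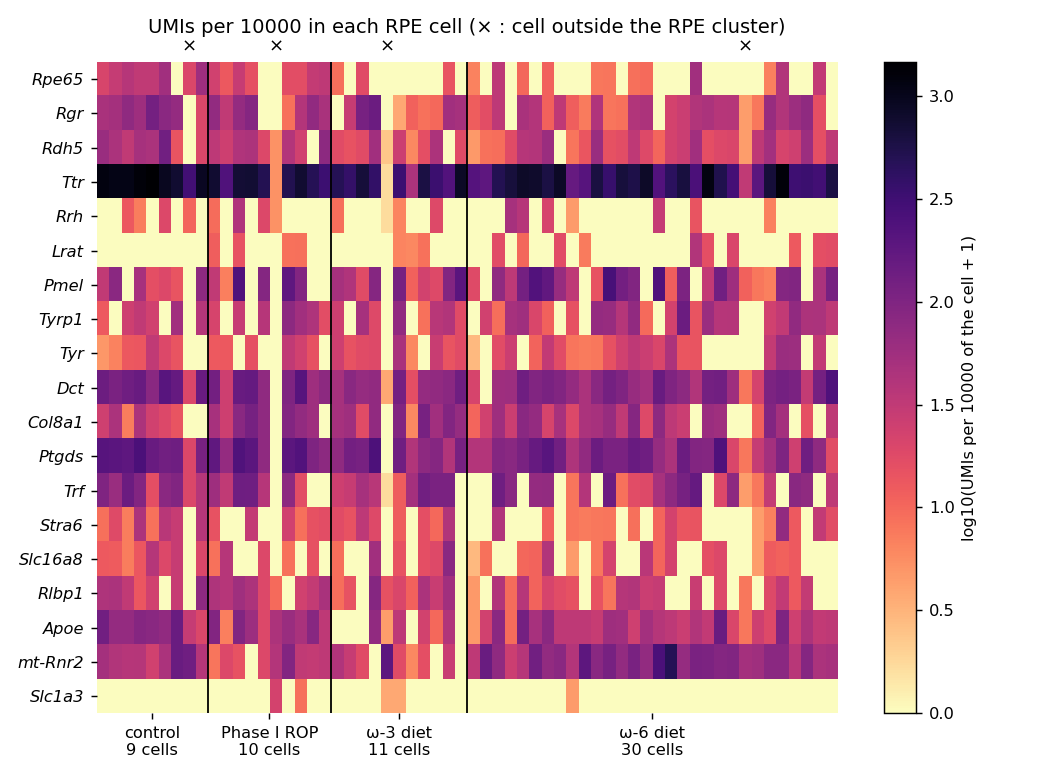
Each column is 1 of the 60 RPE cells, ordered by group, mouse and depth, and each row a gene (6 rule markers with a UMI, then 13 others), with colour giving log10 of UMIs per 10000 of the cell plus 1. Crosses mark the 4 cells outside the RPE cluster, among them the cell of ω-3 mouse 2 with almost no Ttr.

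Members differed among themselves by large factors. Ttr ran from 0.683 to 1456 UMIs per 10000 with a median of 521, Pmel from 0 to 267 with a median of 32.6, and Rpe65 from 0 to 56.4 with a median of 5.68. Ptgds was absent in 2 of 60 members and Dct in 2. Each of the 4 groups held members with and members without Rpe65.

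The share of RPE cells was compared between groups over mice. Controls had 1 of 925 cells, 6 of 787 and 2 of 1493, or 0.335% ± 0.371 (SD, n = 3). Phase I ROP mice had 1 of 2039, 4 of 1397 and 5 of 2312, or 0.184% ± 0.122 (SD, n = 3). The ranges overlapped, and the difference of -0.151 percentage points was not larger than the spread between mice (exact two-sided permutation test, p = 0.8, with 0.1 the smallest p that 3 against 3 mice allow). The direction rested on control mouse 2, without which the difference was 0.0628. With the members inside the cluster it was -0.143. With 2 or more markers in place of 3, the shares were 2.00% and 0.681%, all controls lay above all Phase I ROP mice, and p was the smallest possible (0.1, exact permutation test). Rdh5, which 84.7% of the cells with 2 markers had, was at 75.7 ± 0.663 CPM (SD, n = 3) in the other cells of controls and at 33.7 ± 1.12 CPM (SD, n = 3) in those of Phase I ROP mice. Kept cells also differed in depth, with medians of 2166, 2341 and 1550 UMIs in controls and 1106, 1190 and 1003.5 UMIs in Phase I ROP mice. The rod cluster held 133, 77 and 292 cells of the controls and 831, 523 and 1117 cells of the Phase I ROP mice. The part of Rdh5, depth or cell makeup in the looser share was not tested. After thinning to 800 UMIs, the difference with 3 or more markers was -0.208 (exact permutation test, p = 0.5).

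Mice on the ω-3 diet had 4 of 2390 and 7 of 2560 RPE cells, or 0.220% ± 0.0750 (SD, n = 2). Mice on the ω-6 diet had 8 of 2618, 14 of 2169 and 8 of 1343, or 0.516% ± 0.184 (SD, n = 3). Each ω-6 mouse lay above both ω-3 mice. The difference of 0.295 percentage points had p = 0.2 in the exact two-sided permutation test, the smallest that 3 against 2 mice allow, so that no difference could have passed 0.05. It was 0.290 with the members inside the cluster, 0.364 for all cells of the RPE cluster and 0.210 after thinning to 800 UMIs. With 4 or more markers the difference was 0.169 (exact permutation test, p = 0.4), and ω-6 mouse 1 (0.153%) lay below ω-3 mouse 2 (0.156%). With 2 or more markers it was 0.492 (exact permutation test, p = 0.6), and ω-6 mouse 1 (0.649%) lay below both ω-3 mice (0.837% and 0.859%). The order of the mice thus depended on the number of markers required. As the RPE had been taken off by hand, the number that stayed on each retina and the number in the eye cannot be told apart.

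**Figure D3:**
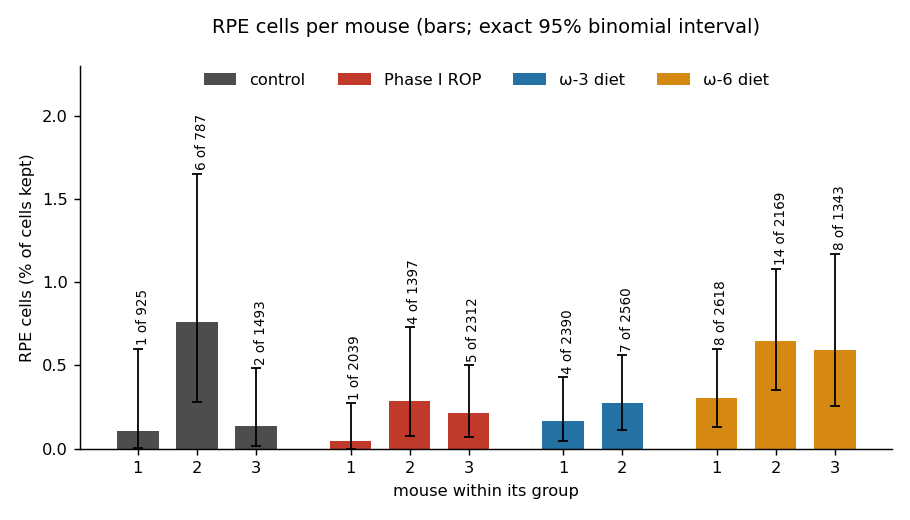
Bars give RPE cells as a percent of cells with over 300 genes in each mouse (x axis, mice within their group), whiskers the exact (Clopper-Pearson) 95% binomial interval, which covers counting error only, and the text above each whisker the number of RPE cells of all cells. The 3 ω-6 mice reach 0.306% to 0.645%, the 2 ω-3 mice 0.167% and 0.273%, and the intervals overlap.

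For levels between Phase I ROP and control, the minimum was 3 members per mouse and 2 such mice per group. Phase I ROP mice 2 and 3 met it but only control mouse 2 did among the controls, so the comparison was not tested under that rule. Values per mouse are therefore given first, for members inside the RPE cluster. Ttr was at 118104, 113436 and 92105 CPM in controls and 75467, 46435 and 55838 CPM in Phase I ROP mice, and the groups did not overlap. The values of control mice 1 and 3 and of Phase I ROP mouse 1 each came from 1 cell. Rpe65 was at 1943, 3182 and 5639 CPM in controls and 2299, 1382 and 2030 CPM in Phase I ROP mice, which overlapped. Col8a1 was at 2331, 2692 and 0 CPM in controls, where 1 UMI of mouse 3 would be worth 1880 CPM, and at 4776, 6081 and 6345 CPM in Phase I ROP mice. Bsg was at 11655, 5140 and 3759 CPM in controls and 3714, 1382 and 2792 CPM in Phase I ROP mice. Col8a1 and Bsg thus did not overlap either. No share of all genes without overlap is given, so these separations, that of Ttr included, are a description.

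A fit over every mouse with a member, added after the numbers of cells were seen, tested 44 genes over all members and called none (percent called 0; edgeR's quasi-likelihood test, adjusted p under 0.05), with 1 gene at an unadjusted p under 0.05. DESeq2 also called 0, with 2 genes at an unadjusted p under 0.05. The 5 genes with the smallest p were Col8a1 (log2 fold change 1.62 ± 0.81 SE), mt-Rnr2 (-1.45 ± 0.80), Rdh10 (1.24 ± 0.80), Bsg (-1.12 ± 0.78) and Mt1 (1.00 ± 0.75), with adjusted p of 0.973 each by edgeR. Inside the cluster, 37 genes were tested and again none was called (percent called 0), with 6 at an unadjusted p under 0.05. Col8a1 missed the threshold there at 1.54 ± 0.49 (edgeR adjusted p = 0.0615), and with the replicate number as a block at 1.69 ± 0.58 (edgeR adjusted p = 0.0915). Ttr, a rule marker that helped to choose these cells, was among the genes tested and, inside the cluster, among the 6. Its levels are taken as a description only. Its log2 fold change was -0.60 ± 0.51 SE over all members and -0.65 ± 0.19 SE inside the cluster. It was the single gene past the threshold inside the cluster with the replicate block, and nothing is read from that.

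In the other cells of the same mice Ttr was at 0.369 to 22.3 CPM in controls and 6.64 to 28.2 CPM in Phase I ROP mice. Of the lists, the pigment genes summed to 21375 CPM in control members and 22102 CPM in Phase I ROP members, the visual cycle genes outside the rule to 12550 and 14238 CPM, and the fatty acid genes to 3320 and 2944 CPM, pooled over mice. Inside the cluster these sums were 23231 and 24145 CPM for pigment, 13655 and 15335 CPM for the visual cycle and 2837 and 3059 CPM for fatty acid genes, so that the order of the fatty acid sums turned. The only cell of Phase I ROP mouse 1 held 63.2% of the member UMIs of its group. Control mouse 2 held 8172 of 12351 control member UMIs. The pooled sums mainly describe these 2 mice.

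For the diets, all 5 mice had at least 3 members. Over all members 159 genes were tested and none was called (percent called 0; edgeR's quasi-likelihood test, adjusted p under 0.05), with 2 genes at an unadjusted p under 0.05. By DESeq2 0 genes were called and 3 had an unadjusted p under 0.05. The 5 genes with the smallest p were Apoe (log2 fold change of ω-6 against ω-3 1.65 ± 0.72 SE), CT010467.1, annotated as a ribosomal RNA (3.24 ± 1.43), Serpine3 (1.91 ± 1.03), Rps12 (-2.22 ± 1.26) and Ints6 (1.76 ± 1.16), with adjusted p of 0.996 each by edgeR. Apoe, the lipid carrier, was at 1278 and 997 CPM in ω-3 members and at 3426, 4001 and 2724 CPM in ω-6 members, with no overlap, and at 488 and 237 CPM against 204, 297 and 226 CPM in the other cells of these mice. All Apoe of ω-3 mouse 1 came from its smallest member, with 566 UMIs. The value of ω-3 mouse 2 was lowered by its cell outside the RPE cluster, which held 60.8% of its member UMIs and little Apoe. Inside the cluster the log2 fold change of Apoe was 1.35 ± 0.50 SE, and it was not called (edgeR adjusted p = 0.396). No share of the 159 genes without overlap is given, so the separation is a description. Serpine3 and Ints6 overlap on opposite strands of chromosome 14 (62663667 to 62692243, plus, and 62676330 to 62761169, minus), over 15914 bases. All 55 UMIs of Serpine3 lay in 5 members, with 26 in 1 cell, and all 5 also held Ints6, so the pair cannot be read as separate genes.

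With the members inside the RPE cluster, 2 of 118 genes were called (percent called 1.69), both higher on the ω-6 diet and both mitochondrial ribosomal RNAs. mt-Rnr2, the large subunit RNA (chromosome M, 1094 to 2675), was at 2555 and 1165 CPM in the ω-3 mice and at 5996, 12373 and 6280 CPM in the ω-6 mice. mt-Rnr1, the small subunit RNA (chromosome M, 70 to 1024), was at 1597 and 424 CPM in the ω-3 mice and at 3348, 5355 and 2607 CPM in the ω-6 mice. The ω-3 values came from 4 and 6 cells with 3131 and 9441 UMIs of all genes, so they rest on few UMIs of either RNA. Both RNAs were higher in 3 of 3 ω-6 mice than in both ω-3 mice. No share of the 118 genes without overlap is given, so this separation is a description. The log2 fold changes were 2.61 ± 0.46 for mt-Rnr2 (edgeR adjusted p = 0.000226) and 2.52 ± 0.63 for mt-Rnr1 (edgeR adjusted p = 0.0164). Over all members they were 0.06 ± 0.66 and -0.11 ± 0.64. The single cell of ω-3 mouse 2 outside the cluster held 271 of that mouse's 282 member UMIs of mt-Rnr2 and 127 of its 131 of mt-Rnr1. Both calls were lost without ω-3 mouse 2, which leaves 1 ω-3 mouse whose spread is assumed to be that of the ω-6 mice (0 of 227 genes by edgeR, 27 at an unadjusted p under 0.05), and without ω-6 mouse 2 (0 of 98 genes by edgeR, 8 at an unadjusted p under 0.05). The log2 fold changes were then 2.10 and 2.15 for mt-Rnr2 and 1.68 and 2.18 for mt-Rnr1. DESeq2 kept mt-Rnr2 (adjusted p = 0.00172) but not mt-Rnr1 (adjusted p = 0.149), and with no filter on low counts edgeR called neither of them (adjusted p = 0.294 and 0.717).

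The same RNAs also differed in the other cells of these retinas. mt-Rnr2 was at 3613 and 3028 CPM in other cells of the ω-3 mice and at 8237, 6439 and 4983 CPM in those of the ω-6 mice, and mt-Rnr1 at 1062 and 900 CPM against 2536, 2156 and 1495 CPM. Their part in the values of the RPE cells was not tested. The mitochondrially encoded protein genes, transcribed from the same genome, summed to 61961 and 88020 CPM in ω-3 members inside the cluster and 60738, 83349 and 101066 CPM in ω-6 members, which overlapped, and none of the 11 tested was called, with 9 at a positive log2 fold change (median 0.42, against 0.23 over the 118 genes).

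The genes that identify the cells are described by their levels. Ttr joined the 2 called RNAs inside the cluster with the replicate block. As it is a rule marker, nothing is read from that. Inside the cluster, Ttr was at 47589 and 33259 CPM on the ω-3 diet and at 43918, 44260 and 47986 CPM on the ω-6 diet, which overlapped. Rpe65 was at 639 and 106 CPM against 701, 492 and 829 CPM, and rested on 3 UMIs over the 2 ω-3 mice. Pmel was at 4791 and 7203 CPM against 6152, 7572 and 3554 CPM. Of the 16 pigment genes 5 could be tested and none was called, 2 with a positive log2 fold change, and of the 22 secreted and matrix genes 9 could be tested and none was called, 2 with a positive log2 fold change (67 of all 118 genes were positive). No gene of the fatty acid list reached the count needed for a test, and the list summed to 1916 and 2754 CPM on the ω-3 diet and 2414, 1847 and 1896 CPM on the ω-6 diet inside the cluster.

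**Figure D4:**
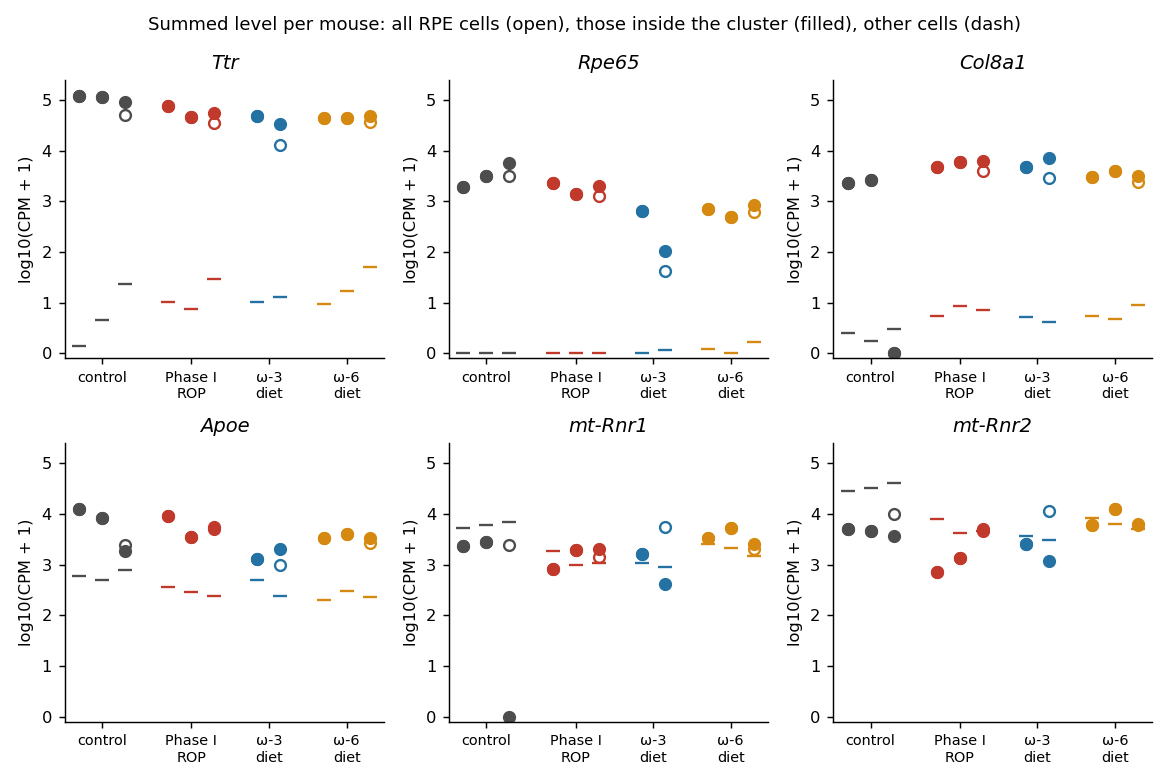
Summed level per mouse as log10(CPM + 1) of Ttr, Rpe65, Col8a1, Apoe, mt-Rnr1 and mt-Rnr2 (1 panel each), in all RPE cells (open circles), RPE cells inside the cluster (filled circles) and the other cells of the same mouse (dashes), by group. For mt-Rnr2 the open circle of ω-3 mouse 2 (11713 CPM) stands far above its filled circle (1165 CPM), and dashes of the ω-6 mice lie above those of the ω-3 mice.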

How the data were processed

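The authors dissociated retinas, captured cells with inDrop and processed reads with bcbio-nextgen, umis and Rapmap against GRCm38. They deposited UMI counts per gene and barcode, as 1 table of the whole series, and these were used as deposited. Cells with over 300 genes were kept. No doublet caller was run, and an alternative left out the 5% of cells with most UMIs per mouse. Clustering used Seurat 5.3.0 without the 7 rule markers. Member counts were summed per mouse and tested with edgeR 4.0.16 (quasi-likelihood test, Benjamini-Hochberg adjustment) in R 4.3.3, with DESeq2 1.42.0 as an alternative. Shares were compared over mice by exact permutation, 2-sided as the smaller tail doubled. Named genes were the 20 largest ratios outside the rule, the 5 smallest p per comparison and the listed genes. The members and lists were chosen with earlier results of these data known. The fit with every Phase I ROP and control mouse, and all values inside the cluster, were added after the data were seen. Control and Phase I ROP mice with the same number deviated together (correlations 0.373, 0.312 and 0.479 over 44 genes), although the labels give only the number. The paper names control and Phase I ROP mice as littermates, and likewise both diets, and comparisons stayed within these sets. The diets were given through nursing dams, and the dam of each mouse was not known here, so diet and dam cannot be told apart. The paper describes smaller litters for STZ-treated mice, so litter size and STZ cannot be told apart either. P-values measure the spread between mice, and cells of a mouse were not treated as replicates. In the Phase I ROP fits, control mouse 1 and Phase I ROP mouse 1 had 1 member each. Inside the cluster, control mouse 3 also had 1. The spread between mice in these fits thus cannot be told apart from that between single cells. Intervals and floors cover counting error only. A few genes that are counted in the lists are not reported here by name.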

Additional observations from a re-analysis of the deposited data

How the results depend on the processing

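The alternatives inside the cluster and the Phase I ROP fits were chosen after seeing the data. The share difference between Phase I ROP and control ranged from -0.264 to 0.0628 when 1 mouse was left out, and that between the diets from 0.230 to 0.400. Leaving out 1 mouse gave 0 called genes over all members in both comparisons, and 0 to 3 inside the cluster. Phase I ROP had 1 called gene with 4 or more markers, 1 with those and the replicate block, and 1 inside the cluster with the block, each time the rule marker Ttr, from which nothing is read. The diets had 2 called genes without the 5% of cells with most UMIs, 2 with all cells of the cluster and 2 with members inside it, and there DESeq2 called 1 and the table with no filter on low counts called 0 of 8421. Over all members mt-Rnr1 turned to 0.51 with the replicate block, 2.51 with 4 or more markers, 2.45 without the cells with most UMIs, 2.23 with cluster cells and 2.52 inside the cluster. mt-Rnr2 turned to -0.042 by DESeq2, -0.054 with its size factors, -0.059 with no filter and -0.68 with over 500 genes. With 1 mouse left out they ran from -0.78 to 1.63 and from -0.70 to 2.13. Causes were not tested, except that the outside cell of ω-3 mouse 2 held most of its mouse's UMIs of both RNAs. Same-numbered diet mice had correlations of -0.083 and -0.247. With only 2 ω-3 mice, their deviations from the group mean mirror each other. Thus ω-6 mouse 2 had 0.247 with ω-3 mouse 1 and -0.247 with ω-3 mouse 2. These values cannot decide whether diet mice were paired. With the replicate block 0 of 159 genes were called over all members and 3 of 118 inside the cluster (Ttr, mt-Rnr1 and mt-Rnr2). Between Phase I ROP and control the block over all members called 0 of 44. Depth limits these results to abundant genes.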
